A study of Caenorhabditis elegans with 4 samples.

Results

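ZFP-1 peaks in the centre of chromosome III were taken from a ChIP-seq study of the nuclear protein ZFP-1 in the nematode Caenorhabditis elegans. They are the peaks of the series list, a peak list deposited for the whole study, that lie on chromosome III with their midpoint from 3720000 to below 10340000 on WormBase build WS220. This window of 6.62 Mb held 1218 of the 13878 peaks of the series list, and 1218 of its 2059 peaks on III. It was chosen by position, as the low-recombination and gene-dense middle of the chromosome, and no peak score or width entered the choice. The study has 4 samples in 2 groups of 2: DNA precipitated with an affinity-purified rabbit antibody to ZFP-1, and the matching input DNA. All 4 come from whole L3 larvae of the wild-type strain N2, a population with both males and hermaphrodites, kept at 20 degrees Celsius. No sample carries a mutation, transgene or treatment. Whole larvae mix all tissues, so a peak does not say in which cells ZFP-1 was bound. Peak lists of the 2 ChIP replicates were used beside the series list, and no peak list of the input was analysed here.

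ZFP-1 carries PHD-type zinc fingers and is the worm relative of AF10 (MLLT10), a human protein known from leukaemia-associated gene fusions. It works with DOT-1.1, the enzyme that adds methyl groups to a lysine in the core of histone H3, and the pair has been described at promoters of widely expressed genes and in the restraint of RNA polymerase II elongation. Worm autosomes have a middle part that is rich in genes and operons and recombines little, between arms that recombine more and hold more repeats. Chromosome III also carries the Hox genes lin-39, ceh-13, mab-5 and egl-5, which set positional identity along the body, and the Notch receptor genes lin-12 and glp-1. No gene annotation of build WS220 was used here, so peaks are named by position and assigned to no gene.

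The centre of III was more densely occupied than the rest of the chromosome in all 3 lists. The series list held 184 peaks per Mb in the window against 118 per Mb on the rest of III. Replicate 1 listed 315 peaks in the window, or 47.6 per Mb, against 30.9 per Mb on the rest of III. Replicate 2 listed 527 peaks there, or 79.6 per Mb, against 58.6 per Mb. The window made up 48.1% of the covered span of III and held 59.2% of its series-list peaks (95% interval 57.0 to 61.3%), 58.8% of those in replicate 1 and 55.7% of those in replicate 2. For the series list, the density ratio of the window to the rest of III was 1.56 (95% interval 1.43 to 1.71). It was 1.54 (1.29 to 1.84) for replicate 1 and 1.36 (1.19 to 1.55) for replicate 2. In an exact two-sided binomial test the adjusted p over 6 tests was 5.32e-23, 2.3e-06 and 5.41e-06 in the same order. That test treats peaks as independent, and the counts of neighbouring bins spread more than independent peaks would. A quasi-Poisson fit over 100 kb bins, which takes its error from the spread between bins, gave 1.57 (1.34 to 1.84), 1.55 (1.24 to 1.93) and 1.35 (1.13 to 1.62), with adjusted p of 9.46e-07, 0.000369 and 0.00215. The direction was therefore the same in both replicates, and the interval based on the spread between bins lay above 1 in each list. The difference in mean count was smaller than the spread of single bins. In the series list, bins held 18.4 peaks on average in the window (standard deviation 7.67) and 11.7 on the rest of III (6.27). With peaks less than 1 kb apart merged and counted once, the series-list ratio was lower, at 1.37 (1.22 to 1.53).

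Peaks also covered a larger part of the sequence there. Series-list peaks covered 8.72% of the window and 4.76% of the rest of III, a ratio of 1.83. Replicate 1 peaks covered 9.30% against 4.59%, and replicate 2 peaks 15.6% against 8.76%. Covered sequence thus differed more than peak number in each list, since peaks in the window were also wider.

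Set beside the same relative part of the other autosomes, from 27.0% to 75.1% of each covered span, the centre of III ranked at or near the top. The series list held 184 peaks per Mb in the centre of III, 180.6 on I, 172 on II, 154 on IV and 141 on V. Replicate 2 gave the same order, from 79.6 on III and 78.0 on I to 61.2 on V. Replicate 1 placed I first with 49.0 peaks per Mb, ahead of III with 47.6. The centres of III and I were not distinguishable in density: the ratio of III to I was 1.02 (0.94 to 1.10) for the series list, while replicate 1 gave 0.97 (0.83 to 1.13) and replicate 2 gave 1.02 (0.91 to 1.15). The ratio of III to II was 1.07 (0.99 to 1.16) in the series list. Against IV it was 1.20 (1.11 to 1.29), and against V it was 1.30 (1.21 to 1.41).

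Against the other 4 centres together, the series-list ratio was 1.15 (1.08 to 1.23), while replicate 1 gave 1.18 (1.04 to 1.33) and replicate 2 gave 1.16 (1.05 to 1.27). The exact binomial test gave adjusted p of 1.96e-05, 0.00999 and 0.00364, and the quasi-Poisson fit over bins gave 0.0295, 0.0389 and 0.0295. The excess over the other centres was small. Against single chromosomes the interval lay above 1 in all 3 lists for IV and V only. The intervals of the ratio to I and of the series-list ratio to II included 1. These single-chromosome intervals treat peaks as independent, which makes them too narrow, and none was computed over bins. For IV and V the one closest to 1 was that of replicate 1 against IV, 1.22 (1.04 to 1.43). The contrast within the chromosome was weaker on III than on the other 4 autosomes. Their centres were set by the relative position of the window on III, not by arm boundaries of their own. The ratio of centre to rest was 1.56 on III, 1.75 on I, 1.87 on II, 1.96 on IV and 2.46 on V in the series list. In each replicate, too, III had the lowest ratio of the 5 autosomes, with 1.54 against 1.62 or more in replicate 1 and 1.36 against 1.45 or more in replicate 2. The rest of III held 118 series-list peaks per Mb, more than the 57.4 to 103.5 outside the centres of the other 4. These differences in ratio between chromosomes were not tested.

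Within the window the peaks were spread unevenly. The 66 whole bins of 100 kb held from 7 to 40 series-list peaks, with a median of 18 and quartiles of 12.3 and 23. Their variance was 3.20 times their mean, where independent peaks of even density would give a value near 1. For replicate 1 this value was 1.45 and for replicate 2 it was 1.60, so the unevenness was largest in the series list. Series-list bins were uneven elsewhere too, with 16.0 peaks on average (standard deviation 7.85) in the other autosome centres and 11.7 (6.27) on the rest of III. In replicate 1 the bins held from 0 to 15 peaks with a median of 4.5, and in replicate 2 from 1 to 17 with a median of 8. No bin was without a series-list peak, and a single bin, from 5320000 to 5419999, had none in replicate 1, with 11 in the series list and 5 in replicate 2. Counts per bin correlated between the replicates with Pearson r = 0.74 and Spearman rho = 0.78 over the 66 bins. This is a description across positions, and the bins share both libraries. The count in a bin and that in the next one correlated with r = 0.07 over 65 pairs, so the count of a bin said little about that of the next.

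**Figure D1:**
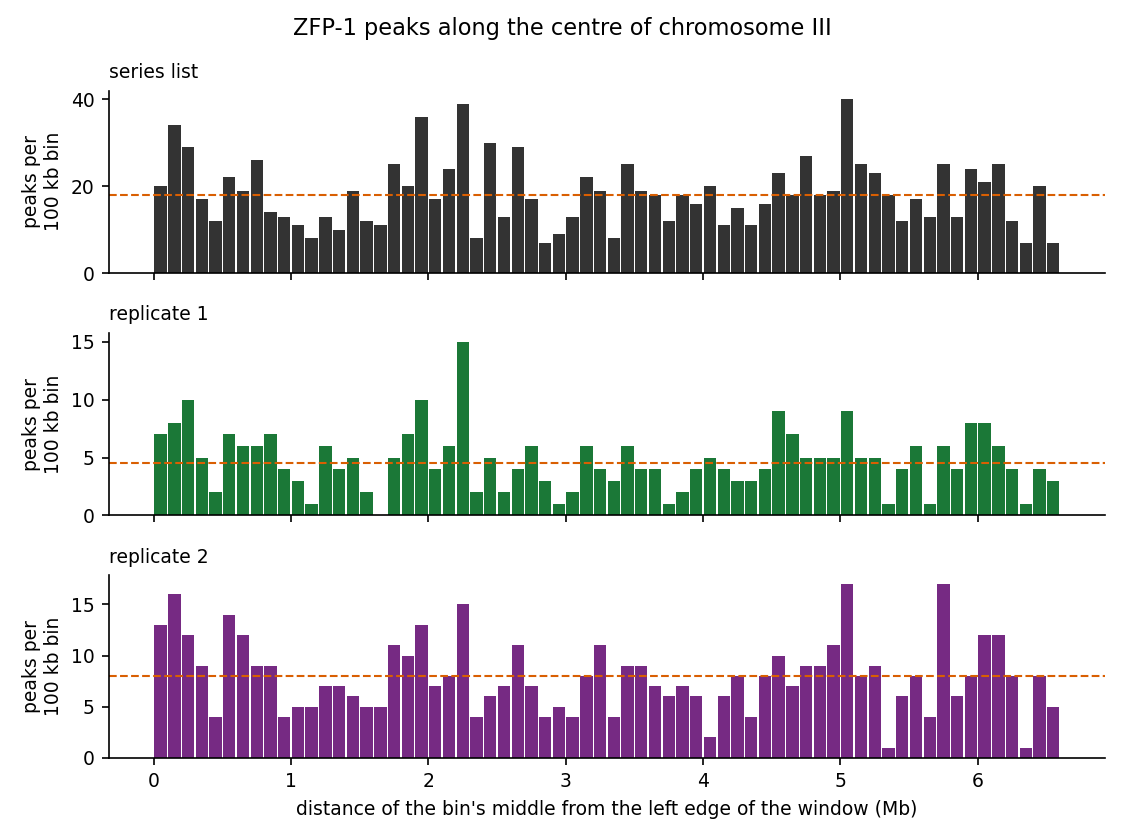
Peaks per 100 kb bin in the series list and in replicates 1 and 2 (vertical axes) against the distance from the left edge of the window in Mb. Each bar is 1 of 66 bins and the dashed line is the median, 18, 4.5 and 8 peaks. The tallest series-list bars, with 40, 39 and 36 peaks, are also above the median in both replicates.

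The densest bin ran from 8720000 to 8819999 and held 40 series-list peaks covering 24.8% of its bases, with 9 peaks in replicate 1 and 17 in replicate 2. The next, from 5920000 to 6019999, held 39 peaks covering 19.1%, with 15 peaks in each replicate, the highest bin count of replicate 1. The third, from 5620000 to 5719999, held 36 peaks covering 20.0%, with 10 and 13 in the replicates. All 3 bins lay above the replicate medians. The sparsest bins held 7 series-list peaks each and lay from 6520000 to 6619999, from 10020000 to 10119999 and from 10220000 to 10319999. Their median scores were 74.6, 9.60 and 34.2 in that order, and their highest 212.82, 214.49 and 181.9, so the sparse bins differed widely in score and the second had mostly weak peaks. Across bins, the number of peaks and their median score showed little correlation (r = -0.12, rho = -0.01, 66 bins).

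In steps of 1 Mb from the left edge, the series list held 206, 165, 193, 170, 178 and 210 peaks per Mb, and 155 per Mb in the last 0.62 Mb. Replicate 1 had its highest step at the left end, with 62 peaks per Mb, and its lowest in the fourth step, with 36. Replicate 2 likewise ranged from 102 in the first step to 71 in the fourth. The fourth step, from 6720000 to 7719999, also had the lowest share of its peaks met in both replicates, 31.2% against 50.0% in the first step, and the lowest covered share, 6.37%. Both replicates were thus sparsest in the fourth step and densest in the first, while the series list was richest in the sixth.

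Each of the 1218 peaks was set against the replicate lists, with 1 bp of overlap counted as a meeting. Both replicates were met by 511 peaks, or 42.0% (39.2 to 44.8%), where 38.4% of all series-list peaks were. Replicate 2 alone was met by 404, or 33.2% (30.5 to 35.9%), against 35.4% of all. Replicate 1 alone was met by 11, or 0.90%, and neither by 292, or 24.0% (21.6 to 26.5%), against 25.3% of all. The shares in the window were close to those of the whole list and of the other autosome centres, where 40.1% met both and 24.7% met neither. On the rest of III, 34.4% (31.2 to 37.7%) met both and 29.5% (26.4 to 32.7%) met neither, with intervals that treat peaks as independent. The difference between the window and the rest of III was not tested. The series list is not independent of the replicates, since the study has no ChIP libraries beyond these 2 among the samples given.

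Seen from the replicates, 308 of the 315 replicate 1 peaks in the window met a replicate 2 peak, or 97.8% (95.5 to 99.1%), the same as the 97.8% of the whole replicate 1 list. In the other direction 281 of 527 replicate 2 peaks met replicate 1, or 53.3% (49.0 to 57.6%), against 50.4% of the whole list. The median score of replicate 2 peaks that met replicate 1 was 1365, and that of the 246 that did not was 157. All 315 and 527 replicate peaks of the window overlapped a series-list peak, as did 99.7% and 99.8% of the whole replicate lists, so the window was at the background in this. The bases shared by the replicates were 53.7% of those covered by either, and 82.9% of the window was covered by no list. For 280 mutual best matches between the replicates, log10 scores correlated with r = 0.74 and rho = 0.81 across peaks, which are not independent of each other.

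Peaks with more support scored higher and were wider. The 511 with a counterpart in each replicate scored 57.1 at the median (quartiles 18.3 and 115), and their median width was 553 bp (383 and 804 bp). For the 404 that only replicate 2 supported, the median was 18.5 for the score and 334 bp for the width. The 292 unsupported peaks scored 6.32 at the median, at a width of 195 bp. The first class supplied 63.9% of the bases covered by the series list in the window, and the last 10.8%. At peaks met in both, the replicate 2 peak had a median score of 1939, and at peaks met in replicate 2 alone it had 249.9. Peaks met in neither lay at widely different distances from the nearest replicate peak, with a median of 2939 bp, quartiles of 1032 and 8034 bp and a longest distance of 33775 bp. Of the 292, 72 (24.7%) were under 1 kb away and 53 (18.2%) were 10 kb or more away. Their highest scores were 33.1, from 8043778 to 8044007, then 31.1, from 7207926 to 7208139, and 27.0, from 6206275 to 6206488. Their widths were 230, 214 and 214 bp, all under the median of the window.

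Peaks in the window had a median width of 347 bp, with quartiles of 226 and 535 bp, and ran from 146 to 5312 bp. The median was 314 bp on the rest of III and 335 bp in the other autosome centres. Replicate peaks were broader, with a median of 1350 bp in replicate 1 and 1336 bp in replicate 2, against 1195 and 1145 bp on the rest of III. The median width was higher in the window than on the rest of III in each list. Of the series-list peaks, 226 were under 200 bp wide, 501 were from 200 to under 400 bp, 400 were from 400 to under 1000 bp, 71 were from 1 to under 2 kb and 20 were 2 kb or more. The 91 peaks of 1 kb or more were 7.47% of the peaks (6.06 to 9.09%) and supplied 27.1% of the covered bases. On the rest of III 3.69% (2.52 to 5.19%) were as wide, and in the other centres 5.77% (5.16 to 6.44%). Of the peaks under 200 bp, 14.6% met both replicates and 68.1% met neither, while all 20 of the peaks of 2 kb or more met both. Support by width is given for the window alone. Width and score rose together across the 1218 peaks (rho = 0.78), and a wider peak has more bases with which to overlap another list.

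**Figure D2:**
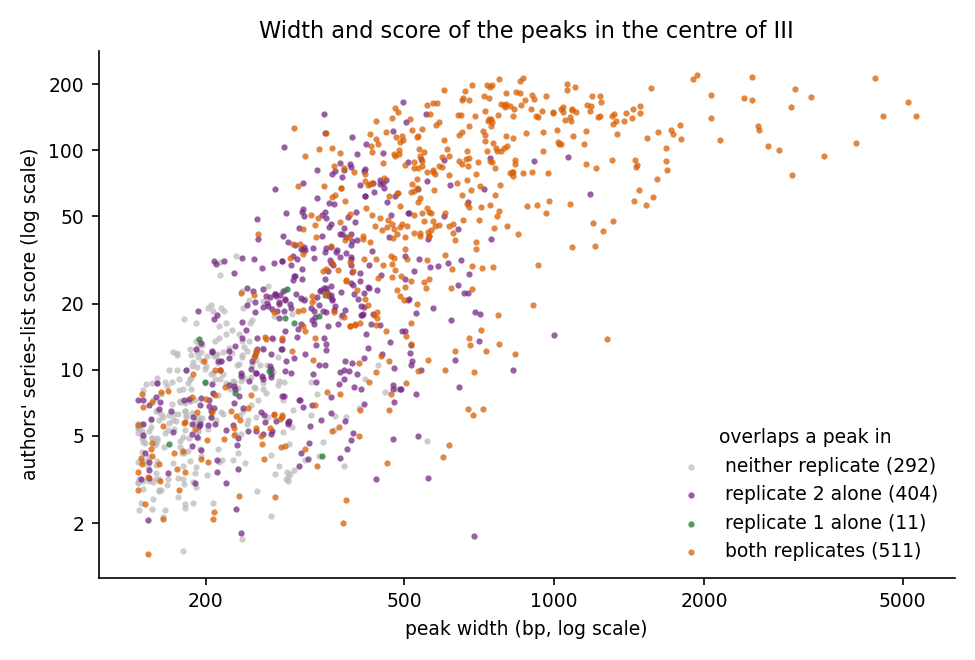
Width in bp (horizontal, log scale) and the authors' score (vertical, log scale) of the 1218 series-list peaks in the window, 1 point per peak, coloured by the replicates they overlap. The 292 peaks met in neither replicate sit at the lower left, with a median width of 195 bp, and all 20 peaks of 2 kb or more met both.

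The 5 widest series-list peaks all met both replicates. The widest, from 9700707 to 9706018, was 5312 bp wide and scored 144.21, and lay in a replicate 1 peak of 9540 bp and a replicate 2 peak of 10952 bp. It was followed by the peak from 5836160 to 5841284, at 5125 bp and a score of 166.67, the one from 8980875 to 8985444, at 4570 bp and 143.64, the one from 6603689 to 6608081, at 4393 bp and 212.82, and the one from 8799304 to 8803325, at 4022 bp and 107.97. Only the fourth was also among the 10 highest scores of the window. All but the fifth nevertheless reached 114.42, the lowest score in the highest-scoring 10% of the whole list. The 20 peaks of 2 kb or more had a median score of 143.9, against 18.1 for all peaks of the window. In replicate 1 the widest peak of the window ran from 9696720 to 9706259 and held 4 series-list peaks. In replicate 2 it ran from 7718001 to 7736139, was 18139 bp wide, and held 15 series-list peaks and 5 replicate 1 peaks. Peaks of 4 kb or more made up 8.89% (5.99 to 12.6%) of those that replicate 1 listed in the window, and for replicate 2 the share was 8.92% (6.63 to 11.7%). On the rest of III they made up 3.62% (1.58 to 7.01%) and 3.10% (1.66 to 5.25%), so the direction was the same in both replicates. The corresponding shares in the other autosome centres were 5.24% (4.11 to 6.58%) and 7.07% (6.05 to 8.21%).

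The score given to each peak is the authors' own, with no stated scale, and it was read only within 1 list. In the window it had a median of 18.1 and ran from 1.45 to 221.27, against a median of 19.7 on the rest of III and 16.9 in the other autosome centres. A score in the highest-scoring 10% of the whole list, 114.42 or more, was reached by 136 peaks of the window, or 11.2% (9.45 to 13.1%), where 10.0% of all series-list peaks reach it. The rest of III had 13.4% (11.2 to 15.9%) and the other centres 9.94%. Of these 136 peaks, 129 met both replicates, 7 met replicate 2 alone and 0 met neither. Their median width was 862 bp, and 105 of them had a neighbouring peak within 1 kb. The support, width and neighbours of such peaks are given for the window alone. The share of such strong sites among the peaks of the window was near that of the whole list.

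The highest score in the window was 221.27, at the peak from 9949499 to 9951428, which ranked 13 in the whole series list. In replicate 1 it lay under a peak scoring 1487, and in replicate 2 under one scoring 3100. The value 3100 is shared by 85 peaks of replicate 1 and 487 of replicate 2 in the whole lists, so peaks at this value cannot be ranked among themselves. The second, from 8124155 to 8126641, scored 216.46 and reached 3100 in both replicates, as did the third, from 10096161 to 10097025, at 214.49. No other peak of the leading 10 reached 3100 in replicate 1.

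The other 7 of the 10 highest-scoring sites met in both replicates were as follows. The site from 6603689 to 6608081 scored 212.82, with 2288 in replicate 1. The site from 7957862 to 7959758 scored 212.34, with 637 in replicate 1, and the site from 10152642 to 10153415 scored 212.01, with 942. These were followed by the sites from 3979888 to 3980739 at 206.69 and from 4795397 to 4796455 at 200.56, whose replicate 1 scores were 627 and 1009. All of these reached 3100 in replicate 2. The last 2, from 3733848 to 3734579 and from 9250379 to 9251127, both scored 198.96, with 587 and 403 in replicate 1 and 2108 and 1838 in replicate 2. All 10 were within the first 98 ranks of the series list. The leading sites were spread over the length of the window and were from 732 to 4393 bp wide. A neighbour within 1 kb was present for 8 of the 10, and 1 of them, the site from 3733848 to 3734579, had no other peak within 10 kb on either side.

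Many peaks stood in groups. Peaks with fewer than 1 kb between them were joined into clusters, which gave 240 clusters of 2 or more peaks with 750 members, and 468 single peaks. Clustered peaks made up 61.6% of the window (58.8 to 64.3%), against 58.3% of the whole list, 52.2% (48.8 to 55.6%) on the rest of III and 62.0% (60.7 to 63.3%) in the other autosome centres. Of the clusters, 121 held 2 peaks, 54 held 3, 30 held 4 and 35 held 5 or more. Their median span was 1895 bp and 23 spanned 5 kb or more. Peaks in clusters of 5 or more were 18.6% of the window (16.4 to 20.9%), close to the 19.1% of the whole list. The share was 11.2% on the rest of III (9.13 to 13.5%) and 23.1% in the other 4 autosome centres together (22.0 to 24.3%). Members of 1 cluster are not independent, which makes these intervals too narrow, and the differences were not tested.

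Clusters coincided with broad replicate peaks. Of the 240 clusters, 226 (94.2%) overlapped a replicate 2 peak and 163 (67.9%) a replicate 1 peak, and 12 overlapped neither. All 35 clusters of 5 or more overlapped both. A single replicate 2 peak bridged 322 of the 333 gaps under 500 bp (96.7%), 54 of the 177 gaps from 500 bp to 1 kb (30.5%), 12 of the 158 gaps from 1 to 2 kb and 0 of the 549 longer ones. Much of the clustering in the series list therefore corresponds to single broad peaks in replicate 2, and less of it to those in replicate 1. Neighbouring series-list peaks shared 1 replicate 2 peak in 388 pairs and 1 replicate 1 peak in 209 pairs. In replicate 2, 197 of 527 peaks (37.4%) met 2 or more series-list peaks, and in replicate 1, 118 of 315 (37.5%) did. The counts of overlapped clusters, bridged gaps and shared peaks are given for the window alone. They have no whole-list share beside them and do not show a trait particular to the window.

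The share met in both replicates was higher the larger the cluster. It was 23.7% (19.9 to 27.8%) of the 468 single peaks, 39.7% (33.5 to 46.1%) of peaks in pairs, 48.6% (42.6 to 54.6%) in clusters of 3 to 4 and 73.9% (67.7 to 79.5%) in clusters of 5 or more. The share met in neither went from 45.3% of single peaks to 4.87% in clusters of 5 or more. Scores did not follow to the same extent: the median was 15.5 for single peaks, 19.1 in pairs, 21.9 in clusters of 3 to 4 and 18.3 in clusters of 5 or more. Median widths were 288, 338, 402 and 455 bp in the same order. Since 1 broad replicate peak can be met by every member of a cluster, the share by cluster size counts the same replicate peak several times. Shares by cluster size are given for the window alone, with no whole-list share beside them.

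**Figure D3:**
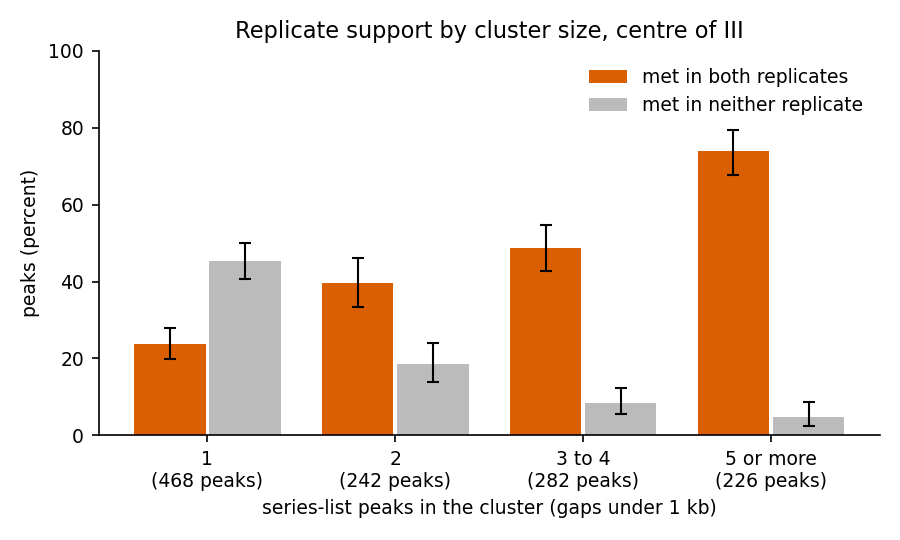
Percent of series-list peaks in the window that overlap a peak in both replicates or in neither (vertical axis) by the number of peaks in their cluster (horizontal axis). Bars are shares and error bars are exact 95% intervals over peaks. Support in both replicates goes from 23.7% of single peaks to 73.9% in clusters of 5 or more.

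The largest cluster ran from 7718259 to 7734215 and held 15 series-list peaks that covered 74.8% of its 15957 bp. Its scores ran from 4.19 to 174.66, 12 of the 15 peaks met both replicates, and none met neither. Replicate 2 listed it as 1 peak that covered its whole length, and replicate 1 as 5 peaks covering 81.6%. The second, from 5982744 to 5992259, held 10 peaks covering 49.5% of 9516 bp, and was divided into 3 peaks in replicate 2 and 5 in replicate 1. It stood in the bin with the most replicate 1 peaks, and its highest replicate 1 score was 533. The third, from 8792371 to 8806050, held 9 peaks covering 77.3% of 13680 bp, with 2 peaks in each replicate whose highest scores were 3100 in both, and it lay in the densest bin of the window.

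Of the 3 clusters with 8 peaks, the 2 with the longest spans are described here. The cluster from 6131765 to 6141803 spanned 10039 bp and lay entirely under 1 replicate 2 peak scoring 3100, with 2 replicate 1 peaks of at most 583. The cluster from 8571543 to 8579762 spanned 8220 bp, and its strongest replicate 2 peak scored 2531 and its strongest replicate 1 peak 257. These 5 regions were thus present in both replicates. Replicate 2 listed fewer peaks than replicate 1 in the clusters of 15 and 10 peaks and in the first of these 2 with 8. The numbers were equal in the cluster of 9, with 2 each, and in the last, with 4 each. In each region the widest peak was longer in replicate 2.

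**Figure D4:**
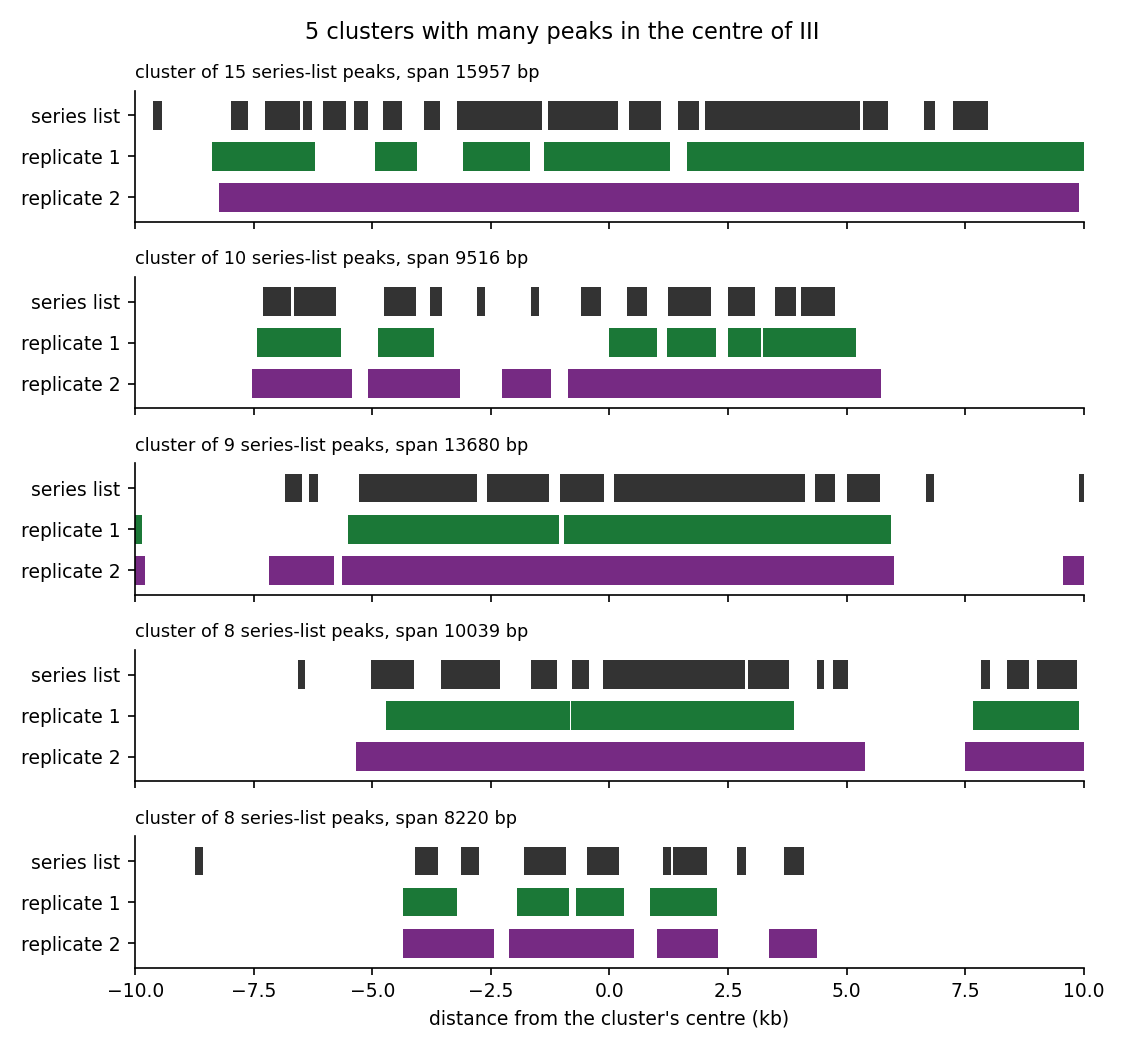
The clusters of 15, 10 and 9 series-list peaks and the 2 longer-spanning of the 3 tied at 8, each drawn to scale against the distance from its centre in kb, with bars for the peaks of the series list and of replicates 1 and 2. Bars are cut at 10 kb from the centre. In the upper panel 1 replicate 2 peak covers all 15 series-list peaks, while replicate 1 shows 5 separate peaks.

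Between neighbouring peaks of the window the gap had a median of 1429 bp, with quartiles of 445 and 6214 bp and a range from 44 to 56230 bp. On the rest of III the median gap was 2467 bp and the longest 154620 bp. In the other autosome centres the median was 1438 bp, close to that on III, and the longest gap among their 5279 was 182468 bp. Gaps under 1 kb numbered 510 of 1217, or 41.9% (39.1 to 44.7%), against 33.6% (30.4 to 36.9%) on the rest of III, 43.4% in the other centres and 39.8% of the whole list, so the window was near the background. The replicates did not share the contrast within III in gaps under 1 kb. In replicate 1, 43 of 314 gaps in the window (13.7%) were that short against 42 of 219 (19.2%) on the rest of III, with overlapping 95% intervals. Replicate 2 gave 23.2% against 23.0%. Short gaps are not alike between the lists, as replicate peaks were wider and single replicate 2 peaks spanned 322 of the 333 series-list gaps under 500 bp. Gaps of 20 kb or more numbered 75, or 6.16% (4.88 to 7.66%), against 12.8% (10.6 to 15.2%) on the rest of III and 7.43% (6.73 to 8.17%) in the other centres. Those 75 gaps held 35.1% of the bases between peaks, and the 510 short ones 3.57%. Gaps of 20 kb or more were a smaller share in the window in both replicates as well. Replicate 1 had 31.5% (26.4 to 37.0%) against 40.6% (34.1 to 47.5%) on the rest of III, and replicate 2 17.7% (14.5 to 21.2%) against 25.7% (21.5 to 30.1%). Median gaps were 9640 bp in replicate 1 and 5440 bp in replicate 2, whose longest gaps were 114855 and 88565 bp.

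**Figure D5:**
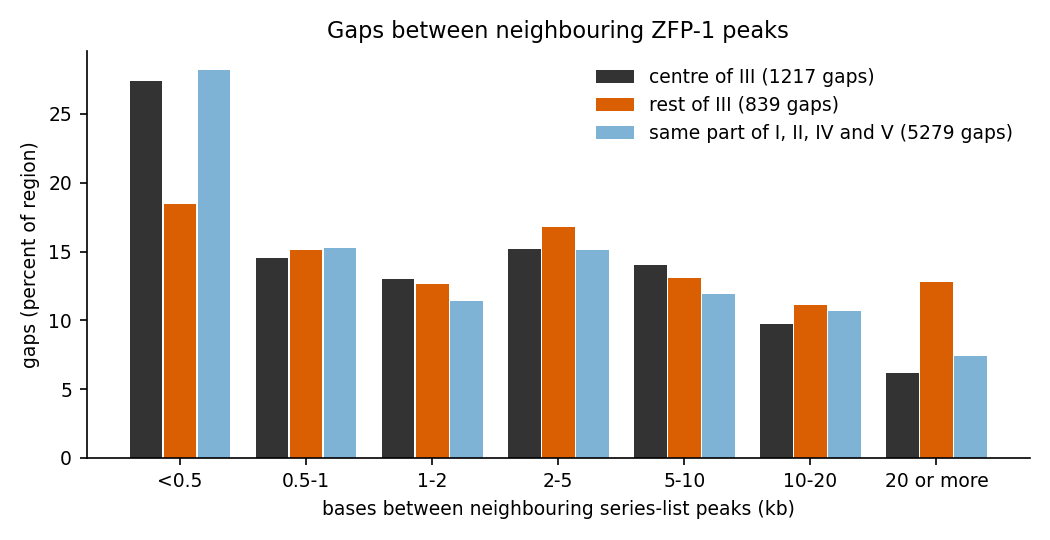
Gaps between neighbouring series-list peaks by length in kb (horizontal axis), as a percent of all gaps of the region (vertical axis), for the centre of III, the rest of III and the same relative part of I, II, IV and V. Gaps of 20 kb or more are 6.16% in the centre of III and 12.8% on the rest of the chromosome.

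The longest gap, of 56230 bp, ran from 7397427 to 7453656. It lay between a peak scoring 12.7 that met neither replicate and one scoring 19.7 that met replicate 2 alone. The next ran from 4797147 to 4849638 (52492 bp), just beyond the strong site from 4795397 to 4796455, and from 6744757 to 6795206 (50450 bp). The others ran from 4951543 to 4998160 (46618 bp) and from 6032365 to 6076450 (44086 bp). Neither replicate had a peak lying wholly inside any of the 5, so all 3 lists were empty across these stretches apart from the flanks of the peaks at their ends. Without input values, an empty stretch cannot be told apart from one that reads could not be placed on.

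Isolated peaks, with no other series-list peak within 10 kb on either side, were few. They numbered 51, or 4.19% of the window (3.13 to 5.47%), against 5.76% of the whole list, 7.61% (5.91 to 9.61%) on the rest of III and 4.49% (3.94 to 5.08%) in the other centres. Their median score was 18.7 and their median width 338 bp. Of the 51, 12 (23.5%) met both replicates and 22 (43.1%, 29.3 to 57.8%) met neither. Isolated peaks were thus supported about as often as single peaks of the window in general, and 5 of them were in the highest-scoring 10% of the list. Their support is given for the window alone, with no share over all isolated peaks of the list.

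At the edges of the window, the first peaks inside on the left were the strong site from 3733848 to 3734579 and a peak from 3764025 to 3764316 with a score of 38.2. Just outside lay peaks from 3702345 to 3702814 and from 3703460 to 3703763, which scored 7.70 and 33.0. On the right, the last peaks inside ran from 10331016 to 10331342 and from 10333986 to 10334233 and scored 16.9 and 10.5, and the first outside ran from 10355327 to 10355706 and from 10367389 to 10367686 and scored 15.9 and 56.6. No cluster crossed either edge.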

How the data were processed

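The data were 3 GFF3 peak lists, 1 per ChIP replicate and 1 for the whole series, with start, end and 1 score per peak. The score was deposited by the authors without a stated scale. Per the file headers, coordinates are on WormBase WS220, 1-based with both ends included. Per the file contents, the caller is MACS for the replicates and MACS v2 for the series list. The submitters' processing notes name BWA and ce10 without roles. Pooling and the use of input are not given in the sources used here. Read depth is unknown. The labels do not say whether replicates were separate cultures, so their spread may be technical.

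Members and comparisons were chosen with earlier results of these data known. Chromosome spans end at the last base covered by any list. Densities were compared by an exact two-sided binomial test with Benjamini-Hochberg adjustment over 6 tests, and by a quasi-Poisson fit over 100 kb bins, added after seeing the data and adjusted likewise. Shares carry exact Clopper-Pearson 95% intervals, which cover counting error over peaks only. Named sites were the 10 highest scores met in both replicates, the 5 widest peaks, the 5 clusters with most peaks (ties by span), 5 longest gaps, 3 densest and 3 sparsest bins, the 3 highest scores met in neither replicate, and 2 peaks on each side of each edge; the bin without a replicate 1 peak and the widest replicate peaks were named after their values were seen. Python 3.11.15, numpy 2.4.6, pandas 2.3.3, scipy 1.17.1 and matplotlib 3.10.9 were used. Overlaps and clusters were checked against bedtools 2.31.1, and functions were tested on simulated data.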

Additional observations from a re-analysis of the deposited data

How the results depend on the processing

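The 9 results were recomputed under 43 alternatives in all. Only the density ratios, to the rest of III and to the other centres, had a direction or a test. Under their alternatives no direction changed and no test crossed its threshold. The other results are descriptive values that could only be unchanged or moved. A tested ratio counted as unchanged if it kept its direction and its side of that threshold, whatever its size. Some such ratios, like the 1.30 given below, therefore lay outside the reported interval. Other values had to stay within the interval of the reported value, and cluster counts within a set factor of it. By these rules 24 alternatives were unchanged and 19 moved. Covered bases in place of peaks gave density ratios of 1.83 to the rest of III and 1.23 to the other centres. The ratio to the rest of III ran from 1.36 to 1.54 with either replicate list alone and was 1.30 in the highest-scoring 10% (exact binomial p = 0.0423). With peaks less than 1 kb apart merged and counted once, the ratio to the rest of III was 1.37 (1.22 to 1.53). The merged ratio to the other centres was 1.18 (1.09 to 1.28). The share met in both replicates was 4.60% with 50% reciprocal overlap, which narrow peaks inside wide ones fail, and 37.2% with the better-scoring peaks of each list compared; with 1 replicate left out the share met in the other was 42.9 to 75.1%. The overlap of replicate 1 with replicate 2 was 79.7% with 50% reciprocal overlap and 87.0% with equal numbers of best-scoring peaks, and the reverse was 47.6% and 76.6%. The better-scoring part of the series list had a median width of 498 bp, a median gap of 4388 bp and 120 clusters. Midpoint distances had a median of 1992 bp. In the replicate lists, median width was 1336 to 1350 bp, median gap 5440 to 9640 bp and median count per bin 4.5 to 8. Replicate 2 lists more peaks than replicate 1, and the cause was not tested. Read depth is unknown, so an absent peak is not shown to be an unbound site. No paired analysis was possible because all peaks used come from the single ChIP group.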
